A study of Arabidopsis thaliana with 24 samples.

Results

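Transcripts of 10 genes that act in the breakdown of leaf starch were followed in Arabidopsis rosettes under control light (C), high light (HL) and darkness (D), in WT and in the *gnat2* mutant. The genes were taken by name, with earlier results of these data known, and all 10 were found by their locus among the 27826 transcripts of the table. They are *SEX1* (also GWD1, AT1G10760), *PWD* (AT5G26570), *SEX4* (AT3G52180), *BAM1* (AT3G23920), *BAM3* (AT4G17090), *AMY3* (AT1G69830), *ISA3* (AT4G09020), *DPE1* (AT5G64860), *DPE2* (AT2G40840) and *MEX1* (AT5G17520). The WT plants were of the ecotype Col-0, and *gnat2* is 1 T-DNA insertion line that lacks GNAT2, an acetyltransferase of the plastid. All plants had grown for 4.5 weeks at 23 °C in short days with 8 h of light, and 2 h after the light came on they received 2 h of C (120 µmol photons per square metre and second), HL (1000 µmol) or D. Each of the 6 groups had 4 biological replicates, and each replicate was a whole-rosette RNA sample on an Affymetrix gene array of its own, which gave 24 arrays.

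Leaf starch is laid down in the chloroplast by day and is degraded at night, when it feeds respiration and growth. Glucan dikinases first place phosphate groups on the granule surface and so loosen it, phosphatases take the phosphate off again, and beta-amylases with debranching enzymes release maltose and short glucans. Maltose leaves the chloroplast through a transporter of its own and is taken up into hexose metabolism by a glucosyltransferase in the cytosol. Mutants in several of these steps keep too much starch at the end of the night, which gave *SEX1* and *SEX4* (starch excess) their names.

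The values are on the log2 scale of the normalized arrays, on which the median of an array was 2.35, and the members lay above the median of the array on all 24 arrays, with a lowest value of 4.96. A level of 1 gene cannot be set against that of another, because probes differ in brightness, so that only differences between groups of the same gene are given. The within-group spread of the members, as a residual SD, ran from 0.08 (*AMY3*) to 0.26 (*ISA3*), with a median of 0.19 against 0.22 for all transcripts. This SD is pooled over the 6 groups, as are the standard errors given here, although WT arrays were less alike. Over all transcripts, the mean correlation of an array with its group ran from 0.980 to 0.984 in WT and from 0.987 to 0.992 in *gnat2*. The labels were borne out by 3 marker genes. *GNAT2* had means of 5.76 to 6.06 in the WT groups and 1.75 to 2.03 in the *gnat2* groups. *ASN1*, a dark-induced gene, was higher in D than in C by 6.45 in WT and 6.58 in *gnat2*, and *ELIP1*, a gene induced by strong light, was higher in HL by 4.13 and 4.79. The 4 leaf markers were read between 4.85 and 12.72, and the flower and seed markers, 2 of 2 in each list, and 2 of 3 root markers lay below the array median on every array. In RNA from whole rosettes, fewer cells of a type and less RNA per cell cannot be told apart.

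In darkness the starch breakdown transcripts were lower than in C as a group. All groups were harvested after the 2 h, and no array shows the state before it. A fall or rise given here is thus a difference between lights at that time. Whether a transcript dropped in D or rose in C was not tested. With limma over all transcripts and a call at an adjusted p under 0.05 (Benjamini-Hochberg), 9 of 10 members were lower in D than in C in WT and 0 were higher. Among all transcripts 13.1% were called lower and 12.7% higher in that comparison. In *gnat2*, 8 of 10 were lower and 0 higher, against 14.5% and 13.3% of all transcripts. A fall of over 2-fold was called for *PWD*, *SEX4* and *DPE2* in WT and for the same 3 genes in *gnat2*, against 3.83% and 4.22% of all transcripts. The median log2 fold change of the 10 members was -0.93 in WT and -0.72 in *gnat2*, whereas the median of all transcripts was 0.00 in both genotypes. The genes that fell in both genotypes were *SEX1*, *PWD*, *SEX4*, *AMY3*, *ISA3*, *DPE1*, *DPE2* and *MEX1*, which take in the dikinases, the phosphatase, the endoamylase, the debranching enzyme, both glucosyltransferases and the maltose transporter. The beta-amylase genes *BAM1* and *BAM3* stood apart, with no call for *BAM1* in either genotype and a small one for *BAM3* in WT alone.

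In high light the members that were called went in both directions. In WT, 2 members were higher (*BAM1* and *BAM3*) and 3 lower (*SEX4*, *DPE1* and *DPE2*), against 11.9% higher and 11.5% lower among all transcripts. In *gnat2*, 2 were higher (*BAM1* and *BAM3*) and 2 lower (*DPE1* and *DPE2*), against 12.5% and 12.1%. Changes of over 2-fold were called for *BAM3* upwards and *DPE1* downwards in both genotypes. Such rises were found in 3.41% and such falls in 3.11% of all transcripts in WT, and in 4.05% and 3.47% in *gnat2*. The median over the members was -0.21 in WT and -0.03 in *gnat2*, with -0.01 for all transcripts in each. For 5 genes, *SEX1*, *PWD*, *AMY3*, *ISA3* and *MEX1*, the fall in D was called in both genotypes and a change in HL in neither. The responses to HL and to D share the 4 C arrays of their genotype, so that they are not independent of each other.

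**Figure D1:**
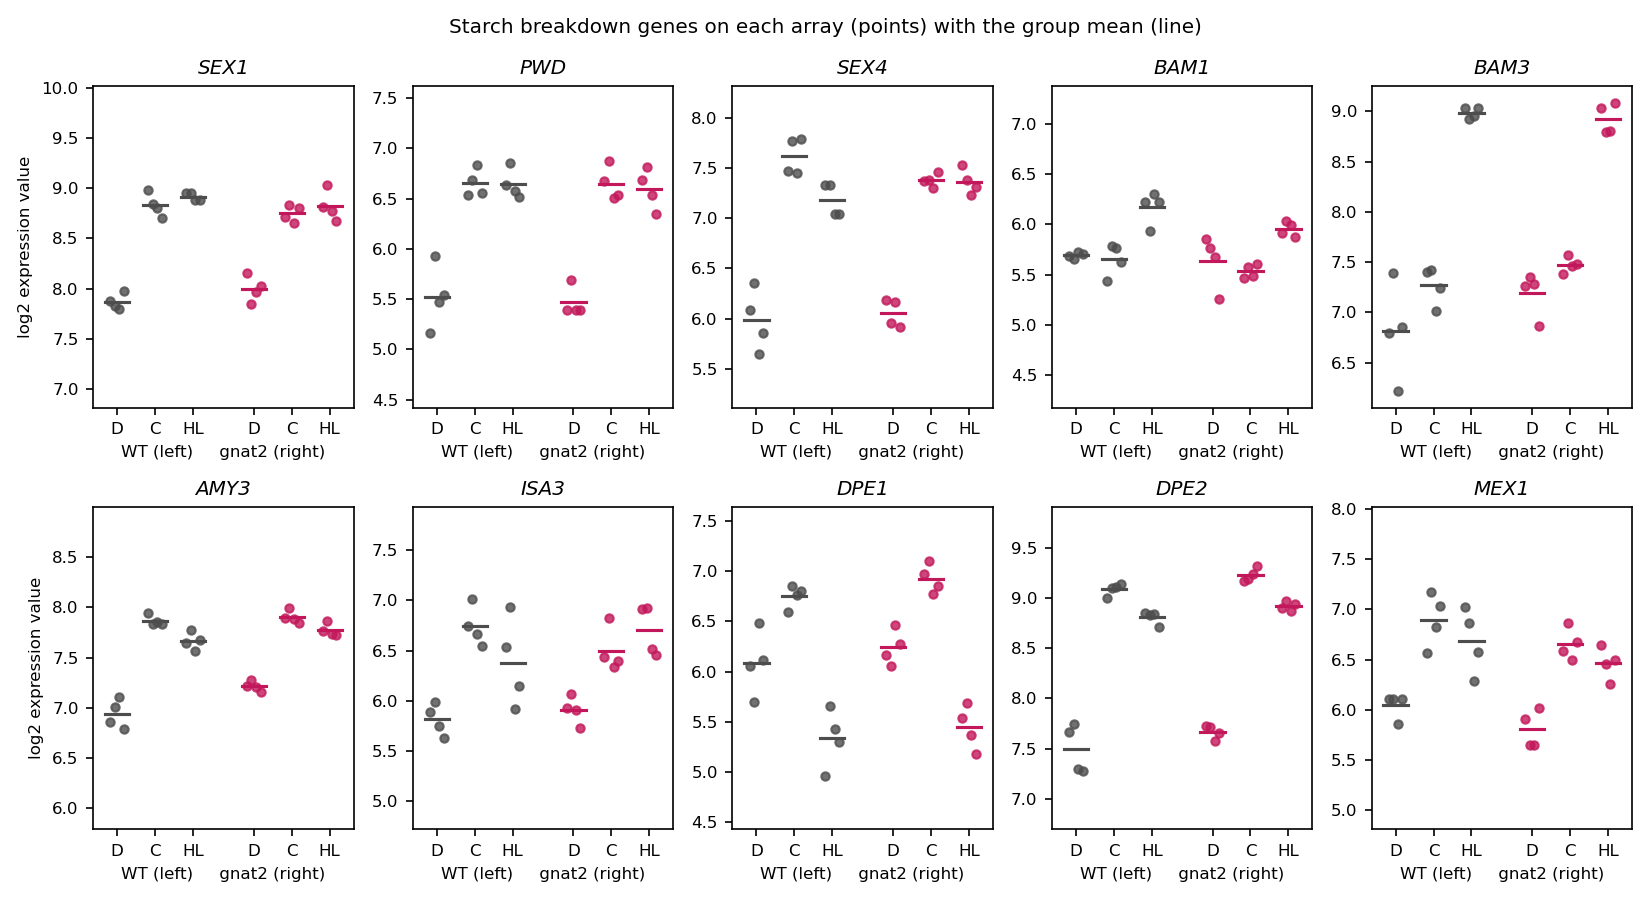
Log2 expression values of the 10 starch breakdown genes on each of the 24 arrays. Points are arrays and lines are group means, for D, C and HL in WT (grey, left) and *gnat2* (pink, right). *DPE2*, *SEX4* and *PWD* lie low in D, *BAM3* lies high in HL, and *DPE1* is highest in C in both genotypes.

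**Figure D2:**
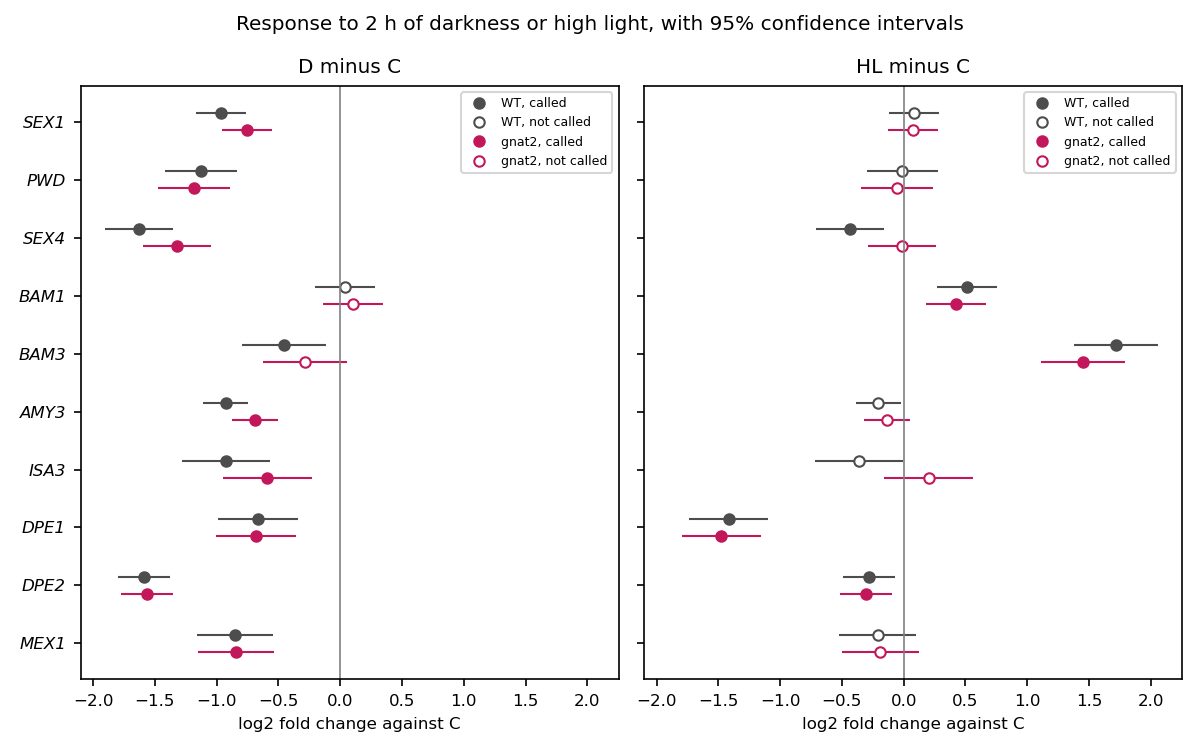
Log2 fold change of each gene in D (left) and HL (right) against C, in WT (grey) and *gnat2* (pink), with bars for the 95% confidence interval from limma. Filled points passed an adjusted p under 0.05, which holds for 9 genes in WT and 8 in *gnat2* in D, all of them lower.

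*SEX1* encodes the glucan, water dikinase that starts the attack on the granule by phosphorylating amylopectin. The WT arrays read 8.98, 8.84, 8.80 and 8.70 in C and 7.88, 7.83, 7.80 and 7.98 in D. In *gnat2* they read 8.71, 8.83, 8.66 and 8.81 in C and 8.16, 7.85, 7.96 and 8.03 in D. Every D array lay below every C array of its genotype. The transcript fell 1.95-fold in WT (log2 fold change -0.96, standard error 0.10, adjusted p = 2.85e-08) and 1.69-fold in *gnat2* (-0.75, standard error 0.10, adjusted p = 1.19e-06). HL left means of 8.92 ± 0.04 and 8.83 ± 0.15 (SD, n = 4), and the log2 differences from C, 0.08 and 0.07, did not pass the test, with 95% intervals of -0.12 to 0.29 and -0.13 to 0.28.

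*PWD* encodes the phosphoglucan, water dikinase, which phosphorylates glucans that SEX1 has already modified. Its values in WT were 6.54, 6.68, 6.83 and 6.56 in C, 6.63, 6.85, 6.58 and 6.51 in HL and 5.16, 5.93, 5.47 and 5.54 in D. The *gnat2* arrays gave 6.67, 6.88, 6.50 and 6.54 in C, 6.69, 6.81, 6.53 and 6.35 in HL and 5.39, 5.69, 5.39 and 5.39 in D. The D arrays of either genotype lay below all of its C and HL arrays, and the C and HL arrays overlapped. The fall from C to D was 2.19-fold in WT (-1.13, standard error 0.14, adjusted p = 7.19e-07) and 2.27-fold in *gnat2* (-1.18, standard error 0.14, adjusted p = 3.03e-07), and the HL differences were -0.01 and -0.05 with no call.

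*SEX4* encodes the phosphoglucan phosphatase that strips the phosphate groups off again, so that beta-amylases can pass along the chain. Its WT values were 7.47, 7.76, 7.45 and 7.79 in C and 6.08, 6.36, 5.64 and 5.86 in D. In *gnat2* they were 7.37, 7.38, 7.30 and 7.46 in C and 6.19, 5.96, 6.17 and 5.91 in D. The gap between the C and D arrays was over 1 log2 unit in each genotype. This was the largest log2 fold change in D among the members in WT, -1.63, standard error 0.13, adjusted p = 6.38e-10, a fall of 3.09-fold, and in *gnat2* the fall was 2.5-fold (-1.32, standard error 0.13, adjusted p = 2.04e-08).

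Under HL, *SEX4* was read at 7.33, 7.33, 7.04 and 7.04 in WT and at 7.53, 7.38, 7.23 and 7.31 in *gnat2*. The 4 WT arrays lay below all WT C arrays, whereas the *gnat2* arrays overlapped with those in C. The log2 fold change was -0.43, standard error 0.13, adjusted p = 0.0179 in WT and -0.02, standard error 0.13, adjusted p = 0.969 in *gnat2*. The difference between these responses was 0.42 (95% interval 0.03 to 0.81) and did not pass the test (adjusted p = 0.755), so that the genotypes are not shown to differ. The WT call was lost when WT C replicate 2 or 4 or WT HL replicate 3 or 4 was left out, with values of -0.39 to -0.38 and adjusted p from 0.0598 to 0.0617 in limma. It was also lost in a fit of only the arrays compared (0.05705).

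*BAM3* encodes a beta-amylase of the chloroplast, the main one of mesophyll cells at night. It had the widest spread of group means of all members (SD of the 6 means 0.94). In WT the arrays read 7.40, 7.42, 7.02 and 7.24 in C and 9.04, 8.93, 8.95 and 9.03 in HL. In *gnat2* they read 7.38, 7.57, 7.46 and 7.48 in C and 9.04, 8.79, 8.80 and 9.09 in HL. Every HL array exceeded every C array of its genotype by over 1 log2 unit. The rise was 3.28-fold in WT (log2 fold change 1.72, standard error 0.16, adjusted p = 1.20e-08) and 2.74-fold in *gnat2* (1.45, standard error 0.16, adjusted p = 1.62e-07).

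In D, *BAM3* was read at 6.79, 7.39, 6.22 and 6.86 in WT, the widest scatter of any member in any group (SD 0.48), and at 7.26, 7.35, 7.28 and 6.87 in *gnat2*. WT D replicate 2 lay among the WT C arrays and WT D replicate 3 far below them. The log2 fold change against C was -0.46, standard error 0.16, adjusted p = 0.0423 in WT and -0.28, standard error 0.16, adjusted p = 0.242 in *gnat2*. The WT call was lost with 6 of 8 arrays left out in turn (WT D replicates 1, 3 and 4 and WT C replicates 1, 2 and 4), with adjusted p from 0.0629 to 0.220, and without WT D replicate 3 the value was -0.26. It was also lost after a further cyclic loess normalization (-0.31, adjusted p = 0.199). The same held for the unmoderated test (0.0578) and for limma with array weights (0.0806). It held too for an adjustment over all comparisons together (0.05895) and a fit of only the arrays compared (0.1955).

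*BAM1* encodes another beta-amylase of the chloroplast, known from guard cells and from leaves under osmotic stress. Its values in C were 5.44, 5.78, 5.77 and 5.63 in WT and 5.46, 5.58, 5.49 and 5.60 in *gnat2*. In HL they were 6.22, 5.94, 6.30 and 6.22 and 5.91, 6.04, 5.99 and 5.88. The HL arrays lay above all C arrays of their genotype, and the transcript rose 1.43-fold in WT (0.52, standard error 0.12, adjusted p = 0.00161) and 1.34-fold in *gnat2* (0.42, standard error 0.12, adjusted p = 0.00826). In D the arrays read 5.68, 5.66, 5.72 and 5.71 in WT and 5.85, 5.77, 5.68 and 5.25 in *gnat2*, where replicate 4 was the lowest. The log2 differences from C were 0.04 (95% interval -0.20 to 0.28) and 0.10 (-0.14 to 0.35), so that a fall as large as that of *SEX1* lay outside both intervals.

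*AMY3* encodes an alpha-amylase of the chloroplast, which cuts within the glucan chains. It was the member with the smallest scatter. Its arrays read 7.95, 7.84, 7.86 and 7.83 in C and 6.86, 7.01, 7.11 and 6.79 in D in WT. They read 7.89, 8.00, 7.88 and 7.85 in C and 7.21, 7.28, 7.21 and 7.16 in D in *gnat2*. The D arrays lay below all C arrays in both genotypes, with a fall of 1.9-fold in WT (-0.93, standard error 0.09, adjusted p = 1.16e-08) and 1.61-fold in *gnat2* (-0.69, standard error 0.09, adjusted p = 1.12e-06). The HL means were 7.66 ± 0.09 and 7.77 ± 0.06 (SD, n = 4), and the log2 differences from C of -0.20 and -0.13 did not pass the test in limma (adjusted p = 0.108 and 0.357). The HL arrays of WT all lay below its C arrays, and the WT value passed in the unmoderated test (adjusted p = 0.0159), the only alternative of those run that did so.

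*ISA3* encodes a debranching enzyme of the isoamylase class, which removes the short branches that beta-amylases leave. In WT its values were 6.74, 7.02, 6.66 and 6.55 in C and 5.89, 5.99, 5.75 and 5.63 in D. In *gnat2* they were 6.44, 6.82, 6.34 and 6.39 in C and 5.93, 6.06, 5.91 and 5.73 in D. The groups did not overlap, and the fall was 1.9-fold in WT (-0.93, standard error 0.17, adjusted p = 1.80e-04) and 1.51-fold in *gnat2* (-0.59, standard error 0.17, adjusted p = 0.0109). Without *gnat2* C replicate 2, the highest of its group, the *gnat2* value was -0.48 and was no longer called (adjusted p = 0.0559 in limma).

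*ISA3* was the member with the largest residual SD, and it was most scattered in WT under HL, at 6.54, 6.93, 5.92 and 6.15. The *gnat2* arrays in HL read 6.92, 6.92, 6.52 and 6.45. Both sets overlapped with their C arrays. The log2 fold change of HL against C was -0.36, standard error 0.17, adjusted p = 0.15 in WT and 0.20, standard error 0.17, adjusted p = 0.506 in *gnat2*, and the difference between them was 0.56 (95% interval 0.06 to 1.07, adjusted p = 0.74). Without WT HL replicate 2, the highest of the 4, the WT value was -0.54 and passed the test (adjusted p = 0.0170).

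*DPE1* encodes the disproportionating enzyme of the chloroplast, which turns short maltooligosaccharides into glucose and longer chains. It was lower than C in both HL and D, and lower in HL than in D. The WT arrays read 6.59, 6.85, 6.76 and 6.80 in C, 6.05, 5.69, 6.48 and 6.11 in D and 4.96, 5.66, 5.42 and 5.30 in HL. The *gnat2* arrays read 6.97, 7.10, 6.77 and 6.85 in C, 6.16, 6.05, 6.47 and 6.28 in D and 5.54, 5.69, 5.37 and 5.18 in HL. The groups of a genotype did not overlap, with C highest, D between and HL lowest. The fall in HL was 2.67-fold in WT (-1.42, standard error 0.16, adjusted p = 1.14e-07) and 2.78-fold in *gnat2* (-1.48, standard error 0.16, adjusted p = 5.33e-08). The fall in D was 1.59-fold in WT (-0.67, standard error 0.16, adjusted p = 0.00183) and 1.61-fold in *gnat2* (-0.68, standard error 0.16, adjusted p = 0.00127).

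*MEX1* encodes the maltose transporter of the chloroplast envelope. It was read at 6.56, 7.17, 6.82 and 7.03 in C and at 6.10, 6.11, 5.86 and 6.11 in D in WT. In *gnat2* it was read at 6.58, 6.86, 6.49 and 6.67 in C and at 5.91, 5.65, 5.65 and 6.02 in D. The D arrays lay below all C arrays, and the fall was 1.8-fold in WT (-0.85, standard error 0.15, adjusted p = 9.08e-05) and 1.79-fold in *gnat2* (-0.84, standard error 0.15, adjusted p = 8.86e-05). The HL means of 6.69 ± 0.33 and 6.46 ± 0.16 (SD, n = 4) gave log2 differences from C of -0.21 and -0.19, which did not pass the test.

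*DPE2* encodes the glucosyltransferase of the cytosol that receives the exported maltose. Its WT arrays read 8.99, 9.10, 9.11 and 9.14 in C and 7.67, 7.75, 7.30 and 7.28 in D. The *gnat2* arrays read 9.17, 9.18, 9.23 and 9.32 in C and 7.72, 7.71, 7.57 and 7.65 in D. In D it lay on every array over 1 log2 unit below the lowest C array. The fall was 3.01-fold in WT (-1.59, standard error 0.10, adjusted p = 9.25e-12) and 2.95-fold in *gnat2* (-1.56, standard error 0.10, adjusted p = 1.10e-11), and these had the lowest adjusted p of the members in D.

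The HL arrays of *DPE2* read 8.84, 8.83, 8.84 and 8.71 in WT and 8.90, 8.97, 8.87 and 8.94 in *gnat2*, below all C arrays of their genotype. The log2 fold change was small, -0.28, standard error 0.10, adjusted p = 0.0485 in WT and -0.31, standard error 0.10, adjusted p = 0.0271 in *gnat2*. The WT call was lost with 7 of 8 arrays left out in turn, all but WT C replicate 1 (adjusted p from 0.0659 to 0.125 in limma). The *gnat2* call was lost without *gnat2* C replicate 3 or 4 or *gnat2* HL replicate 1 or 3 (0.0556 to 0.0827). After cyclic loess the values were -0.18 in both genotypes and neither passed (adjusted p = 0.255 and 0.267). The WT call was also lost with array weights (0.0726), an adjustment over all comparisons together (0.0625) and a fit of only the arrays compared (0.129).

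Between the extremes of the light range, HL and D, all 10 members differed in both genotypes. In WT, 9 were higher in HL and 1, *DPE1*, was lower, against 19.1% and 18.6% of all transcripts. The counts in *gnat2* were the same, against 20.5% and 19.7%. The largest difference was that of *BAM3*, 4.51-fold in WT (log2 2.17, standard error 0.16, adjusted p = 4.76e-11) and 3.34-fold in *gnat2* (1.74, standard error 0.16, adjusted p = 2.23e-09). *DPE2*, *SEX4* and *PWD* followed, with log2 differences of 1.31, 1.20 and 1.12 in WT and 1.25, 1.30 and 1.13 in *gnat2*. *DPE1* was lower in HL than in D, with log2 differences of -0.75 in WT and -0.79 in *gnat2* (adjusted p = 3.16e-04 and 1.43e-04 in limma). The smallest difference was that of *BAM1* in *gnat2*, 0.32 (adjusted p = 0.0325), which was 0.19 and not called without *gnat2* D replicate 4 (adjusted p = 0.205), nor called without *gnat2* HL replicate 2 or 3. That call was also lost with cyclic loess (0.0525), an adjustment over all comparisons together (0.0677) and a fit of only the arrays compared (0.0713). *ISA3* in WT, 0.57, was 0.38 and not called without WT HL replicate 2 (adjusted p = 0.0722). In a fit of only the arrays compared it was not called either (0.0530).

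The order of the 3 lights was therefore not the same for all members. *BAM3* was ordered D, C, HL from low to high by its means, with the step from D to C called in WT alone and lost there with most arrays left out, and *BAM1* had no called difference between D and C and was higher in HL. *SEX1*, *PWD*, *AMY3*, *ISA3* and *MEX1* were low in D, with C and HL as neighbours whose difference did not pass the test. *SEX4* and *DPE2* were lowest in D and highest in C in both genotypes by their means, with HL a short way below C. For *SEX4* in *gnat2* this last step, -0.02, did not pass the test (adjusted p = 0.969 in limma), and it changed sign after cyclic loess (0.065) and with *gnat2* C replicate 4 or *gnat2* HL replicate 3 or 4 left out (0.0035 to 0.0273). *DPE1* ran C, D, HL from high to low.

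No member was called different between *gnat2* and WT in any light. In C, 0 of 10 members differed between *gnat2* and WT at an adjusted p under 0.05 in limma, and 0 at an unadjusted p under 0.05, against 1.30% of all transcripts called. In HL the count was 0 at either limit, against 1.92% called. In D it was 0, against 3.92% called, with 2 members at an unadjusted p under 0.05. Of the 27826 transcripts, 4329 in C, 4147 in HL and 5241 in D had an unadjusted p under 0.05 in limma. The log2 differences ran from -0.25 (*MEX1*) to 0.20 (*BAM3*) in C, from -0.22 (*MEX1*) to 0.32 (*ISA3*) in HL and from -0.24 (*MEX1*) to 0.38 (*BAM3*) in D. The 95% intervals of the 10 members reached from -0.60 to 0.54 in C, from -0.53 to 0.68 in HL and from -0.55 to 0.72 in D, so that a difference of 2-fold lay outside all of them but differences within these bounds did not. The differences between the responses of the genotypes were not called either, with 0 of 10 for HL and 0 of 10 for D, against 0.0108% and 0.0288% of all transcripts. At an unadjusted p under 0.05 there were 2 for HL, *SEX4* and *ISA3*, and 0 for D. Among the 27826 transcripts, 1720 for HL and 2095 for D passed that unadjusted limit in limma.

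The 2 members nearest to a genotype difference were *AMY3* and *BAM3*, both in D. *AMY3* was read at 6.86, 7.01, 7.11 and 6.79 in WT and at 7.21, 7.28, 7.21 and 7.16 in *gnat2*. All *gnat2* arrays lay above all WT arrays, with a log2 difference of 0.27 (95% interval 0.09 to 0.46, adjusted p = 0.0873 in limma). It was called with the unmoderated test (adjusted p = 0.0163) and with an adjustment over all comparisons together (0.0349). The latter is looser in this comparison, where it took the calls over all transcripts from 1090 to 2141. For *BAM3* the difference was 0.38 (95% interval 0.04 to 0.72, adjusted p = 0.21), and it became 0.57 and was called without WT D replicate 2 (adjusted p = 0.0281), the WT array that stood highest in D.

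*MEX1* was lower in *gnat2* than in WT by the mean in each light, at -0.25 in C, -0.22 in HL and -0.24 in D, and *DPE2* was higher, at 0.14, 0.11 and 0.17. For *DPE2* the 4 *gnat2* arrays lay above the 4 WT arrays in C and in HL. None of these passed the test, with adjusted p from 0.394 to 0.668 in limma.

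**Figure D3:**
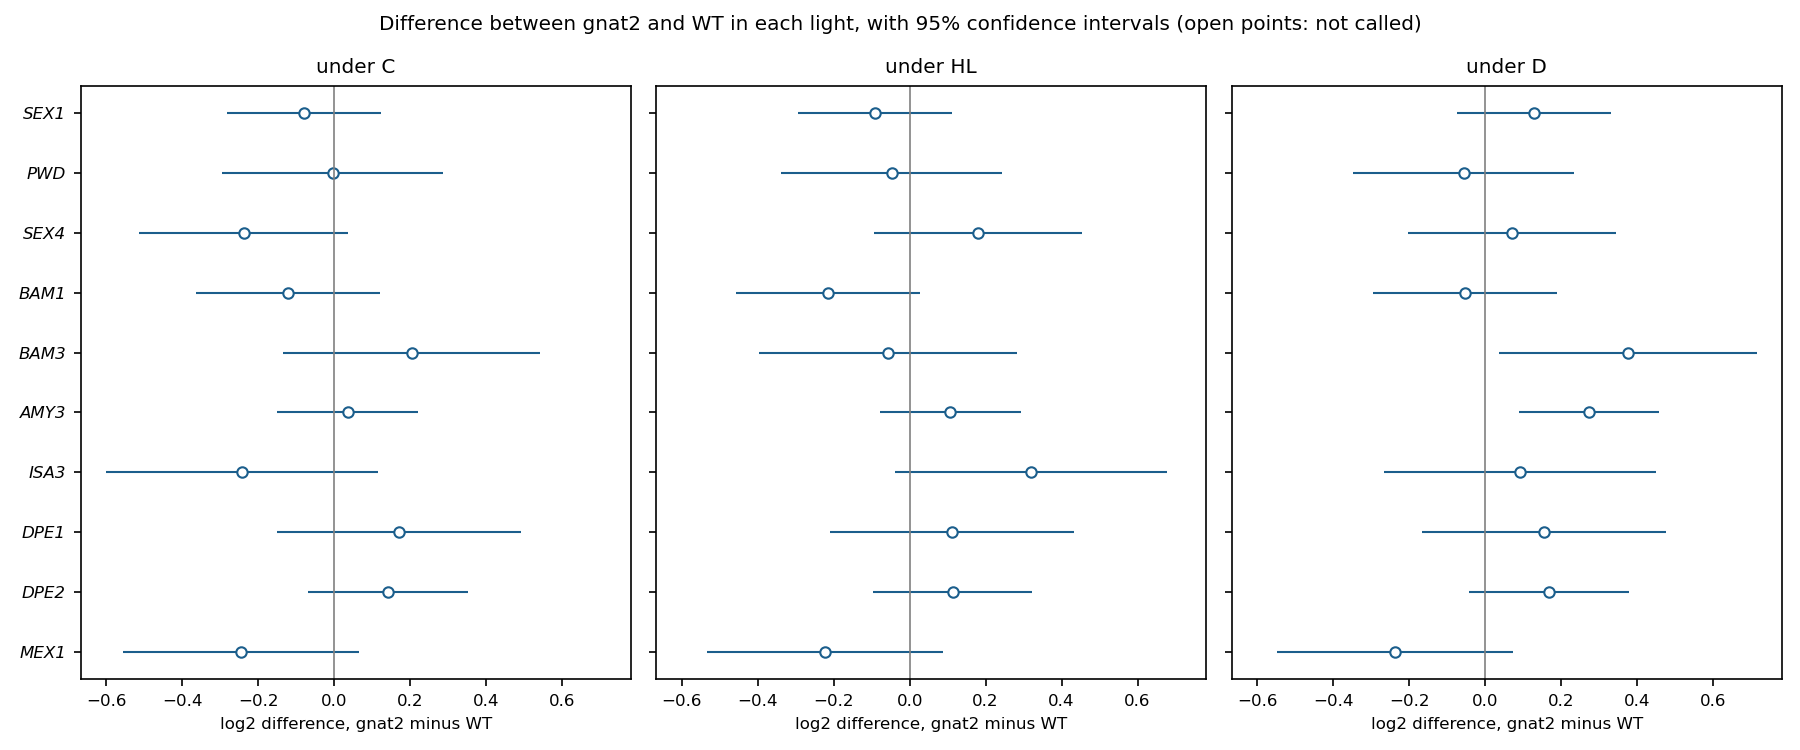
Log2 difference of *gnat2* minus WT for each gene in C, HL and D, with bars for the 95% confidence interval from limma. No point passed an adjusted p under 0.05, and only the intervals of *BAM3* and *AMY3* in D leave out 0.

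A further 18 genes with known or likely parts in starch breakdown were called in both directions in D. In WT, 8 of them were lower and 3 higher, with a median of -0.43, and in *gnat2* 9 were lower and 3 higher, with a median of -0.44. Among all transcripts 13.1% were lower and 12.7% higher in WT and 14.5% and 13.3% in *gnat2*, so that 3 of 18 higher is near the share of all transcripts. *BAM5*, a beta-amylase outside the chloroplast, was far lower in D, with log2 fold changes of -3.88 in WT and -3.67 in *gnat2* (adjusted p = 2.36e-08 and 5.20e-08 in limma). In D it read 3.65, 3.88, 3.87 and 3.67 in WT and 3.24, 6.01, 3.98 and 3.67 in *gnat2*, where replicate 2 stood above the rest. *BAM6*, another gene of that family, was lower in D, with log2 fold changes of -2.97 and -3.15, as was *PHS2*, the cytosolic glucan phosphorylase, with -2.28 and -2.11. *BAM4*, a chloroplast protein of the beta-amylase family without known catalytic activity, went the other way. It read 3.36, 3.74, 3.34 and 3.94 in C and 6.28, 5.88, 5.77 and 5.88 in D in WT, and its log2 fold changes were 2.36 and 2.60 (adjusted p = 4.28e-11 and 6.51e-12). The other 2 that were higher in both genotypes were *GLT1* and *BAM9*, although the call of *BAM9* in WT (adjusted p = 0.0425 in limma) was lost with WT D replicate 2, 3 or 4 or WT C replicate 1 or 4 left out (0.0586 to 0.156).

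In HL, 3 of the 18 were higher and 4 lower in WT, and 3 were higher and 3 lower in *gnat2*. Among all transcripts the shares were 11.9% and 11.5% in WT and 12.5% and 12.1% in *gnat2*, so that these counts are not far from them. *BAM5* rose by 2.43 and 2.52 on the log2 scale. *AMY2*, an alpha-amylase gene, rose by 1.04 and 1.20. *BAM4* was higher in HL as well as in D, with log2 fold changes of 0.49 in WT (adjusted p = 0.033 in limma) and 0.62 in *gnat2* (adjusted p = 0.00547). The WT call was lost with WT C replicate 1 or 3 or WT HL replicate 2 or 3 left out, with values of 0.37 to 0.48 and adjusted p from 0.0615 to 0.134. *GLT1*, the glucose transporter of the chloroplast envelope, which exports the glucose that DPE1 sets free, was lower, with log2 fold changes of -2.01 in WT and -2.07 in *gnat2*. *PHS1*, the chloroplast glucan phosphorylase, was lower as well, at -0.76 and -0.73. The remaining lower calls were those of *LDA*, a debranching enzyme, in both genotypes and of *PHS2* in WT alone (adjusted p = 0.0486), the latter lost with any WT C array or WT HL replicate 3 or 4 left out (0.0611 to 0.147). Among the 18 genes the 1 called genotype difference was that of *LESV*, a starch-binding protein of the plastid, in D (-0.57, standard error 0.15, adjusted p = 0.0384), with WT arrays at 4.67, 5.47, 4.71 and 4.59 and *gnat2* arrays at 4.03, 4.60, 4.19 and 4.35. It was lost with *gnat2* D replicate 1, 3 or 4 or WT D replicate 2 left out, and without the last it was -0.36 (adjusted p = 0.104).

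Genes of starch synthesis were also lower in D. Of 17, 16 were lower in WT and 17 in *gnat2*, against 13.1% and 14.5% of all transcripts, with 0 higher in either, and their medians were -0.95 and -0.77. In HL, 3 were higher and 3 lower in each genotype, not far from the shares of all transcripts. Those were 11.9% and 11.5% in WT and 12.5% and 12.1% in *gnat2*. These lists are described by their counts and medians and were not tested against each other. Transcripts of the circadian clock, which is known to time several starch breakdown genes, also differed between the lights after the 2 h. *CCA1*, a morning clock gene, was higher in HL by 1.63 in WT and 1.26 in *gnat2* and lower in D, with log2 fold changes of -1.21 and -0.97. *PRR9*, another gene of the clock, was lower in D as well, at -2.38 and -2.08. *PRR5* and *PRR7*, also of the clock, went the other way by their means. From C to D, *PRR5* went from 3.91 to 5.89 in WT and from 4.01 to 6.75 in *gnat2*. Its D arrays were widely scattered, with an SD of 1.19 in WT (range 5.04 to 7.65) and 0.75 in *gnat2*. *PRR7* went from 8.03 to 8.55 in WT and from 8.07 to 8.83 in *gnat2*. Of 7 clock genes, 4 were called in D in WT (2 higher, 2 lower) and 5 in *gnat2* (3 higher, 2 lower), against 12.7% higher and 13.1% lower among all transcripts in WT and 13.3% and 14.5% in *gnat2*. *LHY*, also of the clock, was not lower in D by its means, at 3.01 in C and 3.30 in D in WT and 2.28 and 2.38 in *gnat2*. It was the 1 clock gene called between genotypes, lower in *gnat2* in C (-0.72) and in D (-0.92). Among all transcripts 1.30% and 3.92% were called there. The call in C was lost in 9 of 17 alternatives and that in D in 0. The part of the clock genes in the responses of the starch genes was not tested.

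**Figure D4:**
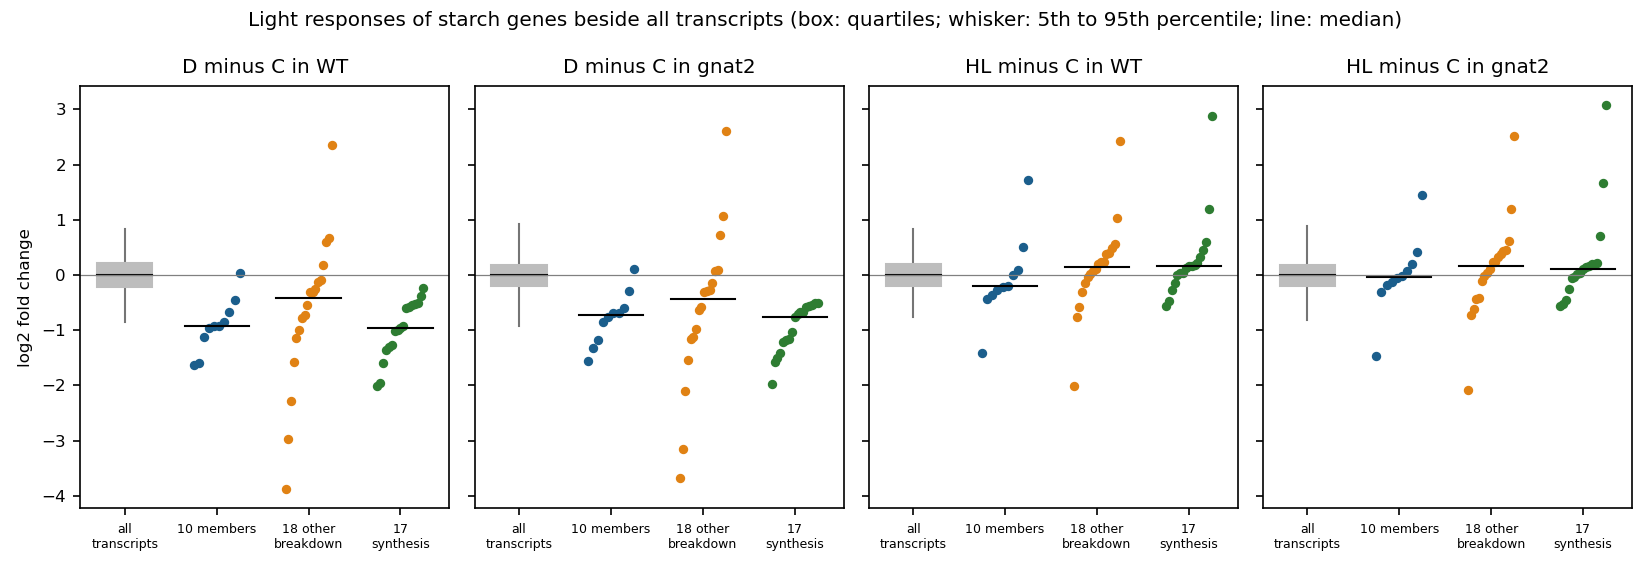
Log2 fold changes in D and HL against C for all 27826 transcripts (box for the quartiles, whisker for the 5th to 95th percentile, line for the median) and for each gene (points, with the median as a line) of the 10 members, the 18 other breakdown genes and the 17 starch synthesis genes. In D the members have medians of -0.93 in WT and -0.72 in *gnat2*, and in HL -0.21 and -0.03.

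The transcripts most like *BAM3* and *SEX4* over the 4 light responses (HL and D, in WT and *gnat2*) were found by the smallest root mean square difference. For *BAM3* these were *NRPA2* (AT1G29940), with a difference of 0.079, *CYP81D5* (AT4G37320), with 0.091, and AT1G71850, with 0.129, and 19 transcripts lay within 0.2. For *SEX4*, the member with the largest fall in D in WT, they were *CDI* (AT1G64980), with 0.080, *CSLC5* (AT4G31590), with 0.102, and *CLH2* (AT5G43860), with 0.126, and 21 lay within 0.2. *NRPA2* had log2 fold changes of 1.79 in HL and -0.39 in D in WT, beside 1.72 and -0.46 for *BAM3*, and *CDI* had -0.40 and -1.58, beside -0.43 and -1.63 for *SEX4*. This measure compares 4 values per transcript, of which HL and D share the C arrays of a genotype.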

How the data were processed

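The 24 arrays hold 1 log2 value per transcript, which the authors made before they deposited them: probes were assigned to TAIR gene definitions by a custom chip definition, corrected by RMA and quantile normalized, so that a change in total mRNA cannot be seen. The mean value was 3.1874 on 23 arrays and 3.18767 for *gnat2* D replicate 1, which was kept and left out in turn like the others. The genome build is not given in the sources used here. Names were taken from RefSeq for 27241 of 27826 transcripts. A linear model with 6 group means was fitted to all arrays with limma 3.58.1 (R 4.3.3), with 18 residual and 6.05 prior degrees of freedom and two-sided tests in 11 comparisons, each adjusted by the Benjamini-Hochberg method over all transcripts, and was tested on simulated data. The depth of an array is its signal, and the number of arrays limits the precision. The members, the lists and the comparisons were chosen with earlier results of these data known. All 10 members are named. Of the 18 other breakdown genes, up to 4 per light are named, those called in the same direction in both genotypes with the largest mean change, and each called genotype difference. Synthesis and clock genes serve for comparison. Of these, *CCA1*, *PRR9*, *PRR5*, *PRR7* and *LHY* were picked after their values were seen. The same holds for *BAM9*, *LDA*, *BAM4* and *PHS2* in HL and *GLT1* in D. The most alike transcripts were sought for the members with the widest group means and with the largest fall in D in WT. Alternatives were a replicate block, an unmoderated test, an intensity trend, array weights, a filter at a mean of 1.35, median centring, cyclic loess, a 2-fold limit, a joint adjustment, fits of the compared arrays and leaving out each array. Promoter and protein sequences were not used here.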

Additional observations from a re-analysis of the deposited data

Results flagged for a closer look

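In each group of 4 arrays, the gap of the lowest or highest array to its nearest neighbour was set against the range of the group, and 3 of 60 combinations of member and group exceeded the 95% critical value of Dixon for 4 values, where chance gives about 1 in 20. *PWD* was 5.69 in *gnat2* D replicate 2, with the other arrays at 5.39. *DPE2* was 8.71 in WT HL replicate 4, with the others between 8.83 and 8.84. *MEX1* was 5.86 in WT D replicate 3, with the others between 6.10 and 6.11. No difference between the responses of the genotypes passed the test for any member.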

How the results depend on the processing

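Of 2030 values of the members under the alternatives, 1917 kept their direction and their side of the threshold, 42 lost their call, 6 gained one and 65 changed sign. All 65 were called neither as reported nor under the alternative, and the largest of them was 0.17 in size. The count of members called for HL against C in WT went from 5 to 3 with only the arrays compared. The count over all transcripts went from 6512 to 5059 there, and from 6828 to 8446 for HL against C in *gnat2*. With each array left out, the count of members in WT ran from 3 to 5. It was 3 without WT C replicate 2 or 4 or WT HL replicate 3 or 4, where *SEX4* and *DPE2* were no longer called. With a 2-fold limit, 2 members were called in HL in each genotype, 3 in D in each genotype, and 5 in WT and 4 in *gnat2* for HL against D. For HL against D, 2222 of 27826 transcripts were higher and 2058 lower at that limit in WT. In *gnat2* these were 2658 and 2404. For *gnat2* against WT in D, the count went from 0 to 1 with the unmoderated test (*AMY3*), with the joint adjustment (*AMY3*) and without WT D replicate 2 (*BAM3*), so that it ran from 0 to 1. Over all transcripts, the 1090 calls of that comparison became 1055 with the unmoderated test and 2141 with the joint adjustment. With only the arrays compared they became 143. With each array left out, 8 to 9 members were called in D in WT, 7 to 8 in D in *gnat2*, 3 to 4 in HL in *gnat2* and 9 to 10 for HL against D in either genotype. Median centring moved no median of all transcripts, and cyclic loess moved them by at most 0.02. Single members could move further with cyclic loess. *BAM3* in D in WT went from -0.46 to -0.31, and *DPE2* in HL from -0.28 in WT and -0.31 in *gnat2* to -0.18 in both. *BAM1* for HL against D in *gnat2* moved less, from 0.32 to 0.29, but lost its call (adjusted p = 0.0525 in limma). The cause of these changes was not tested.

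The replicate numbers are shared by all groups, but nothing says that a number marks a shared batch. Of 36 pairs of arrays with the same number in 2 groups compared, 12 had deviations that correlated at over 0.1 across transcripts (range 0.02 to 0.24), and an array correlated best with its own number in 31, a hint from the data and not from the design. With the replicate block, the count of members stayed at 5 in HL in WT, where *ISA3* gained a call (adjusted p = 0.0239 in limma) and *DPE2* lost it (0.0534), and no other call of a member changed. Transcripts called in all went from 6512 to 6783 in that comparison.

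The values that changed sign were all close to 0. With cyclic loess, *PWD* was 0.025 in WT and 0.0037 in *gnat2* and *SEX4* 0.065 in *gnat2* for HL against C, the difference between the HL responses was 0.0175 for *SEX1*, and that between the D responses 0.0068 for *DPE1*. With array weights, *PWD* was 0.0016 for *gnat2* against WT in C. Over the arrays left out in turn, the ranges for HL against C in WT were *PWD* -0.0788 to 0.0509. In *gnat2* they were *PWD* -0.125 to 0.0296 and *SEX4* -0.0707 to 0.0273. For D against C in WT they were *BAM1* -0.0351 to 0.0798. For *gnat2* against WT in C they were *PWD* -0.0804 to 0.0563. In HL they were *PWD* -0.12 to 0.035 and *DPE1* -0.0134 to 0.219. In D they were *PWD* -0.177 to 0.0778, *SEX4* -0.0426 to 0.196 and *BAM1* -0.126 to 0.0745. For the difference between the HL responses they were *SEX1* -0.0807 to 0.0391, *PWD* -0.116 to 0.0389, *DPE1* -0.185 to 0.0473, *DPE2* -0.0612 to 0.0029 and *MEX1* -0.112 to 0.135. For that between the D responses they were *PWD* -0.173 to 0.0817, *BAM1* -0.0046 to 0.196, *BAM3* -0.0262 to 0.365, *DPE1* -0.147 to 0.117, *DPE2* -0.0472 to 0.109 and *MEX1* -0.0839 to 0.119.

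The same alternatives were run for the other genes after the data were seen, but not for *PRR5* and *PRR7*. The calls of *BAM4*, *BAM5*, *BAM6*, *BAM9*, *PHS2*, *GLT1*, *AMY2*, *PHS1*, *LDA*, *CCA1* and *PRR9* given in the text, with 3 exceptions, were kept in all 17 alternatives of each, whereas that of *LESV* was lost in 7 of 17. The 3 exceptions were calls in WT, of which *BAM4* in HL was lost in 5, *PHS2* in HL in 10 and *BAM9* in D in 9 of 17 each. The count of other breakdown genes called in D ran from 10 to 13 in WT and from 12 to 13 in *gnat2*, and in HL from 5 to 9 and from 6 to 11. In *gnat2* the 6 calls in HL became 11 with array weights and 10 with only the arrays compared, and 3 with the 2-fold limit, which is outside these ranges. Cross-hybridization between related genes was not tested, and a p that misses the threshold with 4 arrays a group does not show that values are equal.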
